A study of Mus musculus with 3 samples.

Results

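Levels of 6 genes of lipid synthesis were compared between mouse liver and mouse spleen RNA. They are Sqle and Sc5d of cholesterol synthesis, Acly and Thrsp of fatty acid synthesis, and Elovl2 and Fads1, which build long polyunsaturated fatty acids. They were found by gene symbol in the platform's annotation, which gave 8 probes for these 6 genes among the 16281 probes of the table. Sqle, Sc5d, Fads1 and Acly had 1 probe each, and Elovl2 and Thrsp had 2 each. The data come from 3 oligonucleotide arrays that each carried both RNAs, spleen RNA with Cyanine-3 in the green channel and liver RNA with Cyanine-5 in the red. Both RNAs were commercial total RNA preparations, with 1 catalogue number per tissue throughout, made into labelled cRNA with 1 round of amplification. The labels give no strain, sex, age, treatment or number of mice, so the 3 arrays were taken as repeats of 1 pair of RNAs. SDs and p-values therefore cover differences from array to array, possibly only technical ones, and not those between mice. Liver was always red, and a dye effect on a probe and a tissue effect cannot be told apart without arrays of the opposite labelling.

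Animal cells make cholesterol and fatty acids from the same cytosolic acetyl-CoA. Acly, ATP citrate lyase, releases that acetyl-CoA from citrate exported by mitochondria. Fatty acid synthase then builds palmitate, which elongases and desaturases lengthen and desaturate, while a separate and longer chain of enzymes leads through mevalonate and squalene to cholesterol. Genes of both routes are controlled by the sterol regulatory element binding proteins, with carbohydrate and thyroid hormone signals acting on the fatty acid branch. Liver is a main site of both routes in mammals.

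Values are deposited log2 ratios, here read as liver over spleen, so that 1 is a 2-fold higher level in liver and a negative value is higher in spleen. The table does not state the direction, which is likely and rests on marker genes. Medians of the measured liver markers were 3.95, 4.37 and 3.76 on arrays 1, 2 and 3, from 2, 4 and 2 genes. Only the liver markers Ahsg and Trf were measured on every array, and their median on array 2 was 3.78. Medians of 7 spleen markers were -1.36, -1.39 and -1.16. Probes measured on all arrays differed within 2 of these markers, at -4.33 and 0.03 for Ptprc and at -2.07 and 0.24 for Coro1a. The spleen marker Cd3e, a T-cell receptor chain, averaged 0.13 ± 0.09 (SD, n = 3) and did not pass the test. The liver markers Ttr and Apoa1 were listed at exactly 0 on every array, and an exact 0 was taken as no measurement. Across 9803 genes with a value on all arrays, Pearson's r between arrays lay between 0.941 and 0.954, which describes the arrays only, since genes are not independent replicates. Ratios were narrowest on array 3, where their SD across genes was 0.892, compared with 0.997 on array 1 and 1.01 on array 2. In ratios of bulk tissue RNA, fewer cells of a type and less RNA per cell cannot be told apart.

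All 6 genes were higher in the liver RNA, from Elovl2 with 12.9-fold to Acly with 2.26-fold. Each passed limma's test of a ratio against 0 (adjusted p under 0.05 over all 9803 genes), each was above 2-fold, and each read above 0 on every array. For Thrsp this holds for the average of its 2 probes, of which probe 7641 averaged -0.14 and did not pass. Of all 9803 genes, 25.3% passed on the liver side and 27.4% on the spleen side, and 9.21% passed toward liver at 2-fold or more. The median of the 6 genes was 2.63, beside a median of 0.02 over all genes. These genes, chosen with earlier results of these arrays known, are not independent evidence of a direction.

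**Figure D1:**
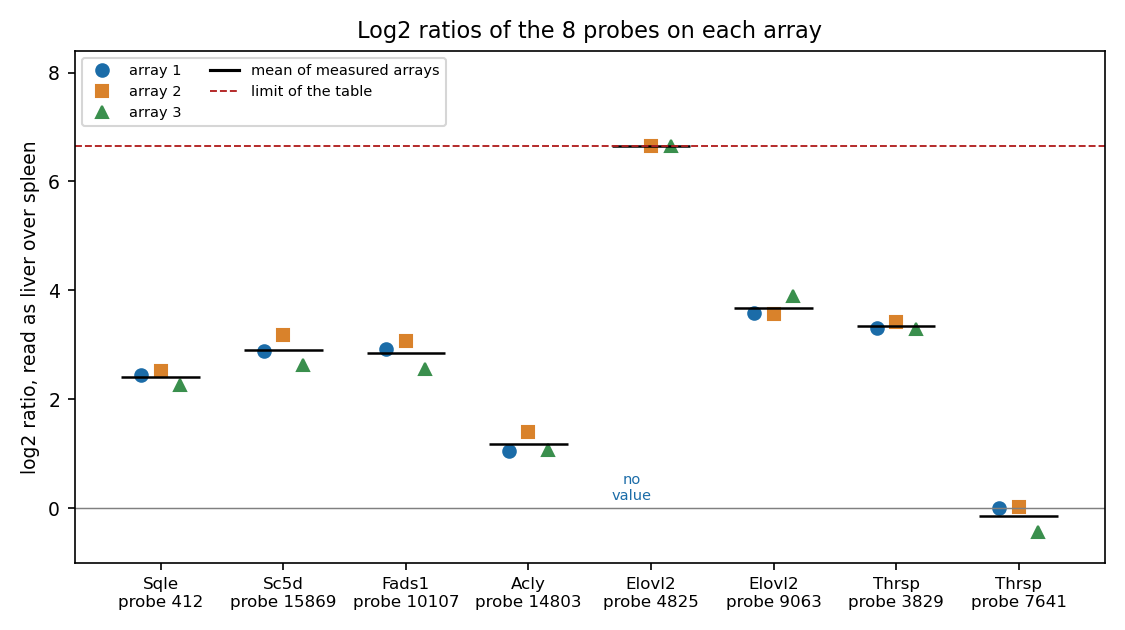
Log2 ratio (vertical axis, read as liver over spleen) of each of the 8 probes on arrays 1, 2 and 3, with the mean of the measured arrays as a black line and the table's limit dashed. Elovl2 probe 4825 sits at the limit of 6.64 on arrays 2 and 3 and has no value on array 1, and Thrsp probe 7641 lies near 0 while Thrsp probe 3829 is near 3.34.

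Squalene epoxidase, Sqle, puts the first oxygen into squalene and is a control point of cholesterol synthesis after mevalonate. It read 2.44, 2.53 and 2.27 on arrays 1, 2 and 3. The arrays lay close together, with array 3 lowest, and the mean of 2.41 ± 0.13 was a 5.33-fold higher level in liver (limma adjusted p = 2.15e-05). Sc5d, lathosterol oxidase, introduces a double bond into the sterol ring close to the end of the same route. It read 2.90, 3.18 and 2.62, a mean of 2.90 ± 0.28 and a 7.45-fold higher level in liver (limma adjusted p = 3.15e-05). Array 2 was again highest and array 3 lowest.

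Acly read 1.05, 1.40 and 1.07, the lowest of the 6 gene values on every array. Its mean of 1.17 ± 0.20 was a 2.26-fold higher level in liver (limma adjusted p = 0.000366). Against a limit of 2-fold in place of 0, limma's treat test did not pass it (adjusted p = 0.509), so a difference of more than 2-fold was not shown for Acly. The other 5 genes passed that test as well, Thrsp as the average of its probes. Array 2 was highest and the other two lay together.

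Elovl2, the elongase that lengthens polyunsaturated fatty acids on the way to docosahexaenoic acid, had the highest ratio of the 6 genes. Its probe 9063 read 3.59, 3.56 and 3.90, a mean of 3.68 ± 0.19 and a 12.9-fold higher level in liver (limma adjusted p = 1.28e-05). Here array 3 was highest, unlike in the other 5 genes, where array 2 was. The other probe of Elovl2, probe 4825, was listed at 0 on array 1 and read 6.64 on both array 2 and array 3. That value is the log2 of 100, the highest in the table, so it is a lower bound of 100-fold on those arrays. Only 4 of the 16281 probes reached this limit on any array, and probe 4825 alone reached it on 2. Because of the missing value this probe does not enter the gene's mean. Where probes with 2 values were let in, Elovl2 averaged 4.65, and without array 1 it averaged 5.19. Both means hold values at the limit and are lower bounds.

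Fads1, the desaturase that completes arachidonic and eicosapentaenoic acid, works on the same chain of fatty acids as Elovl2. It read 2.92, 3.07 and 2.56, a mean of 2.85 ± 0.26 and a 7.22-fold higher level in liver (limma adjusted p = 3.04e-05). Array 3 was lowest, as for Sc5d.

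Thrsp, a small protein induced by thyroid hormone and carbohydrate in tissues that make fat, gave different answers from its 2 probes. Probe 3829 read 3.30, 3.43 and 3.29, a mean of 3.34 ± 0.07 and a 10.1-fold higher level in liver (limma over all probes, adjusted p = 1.73e-05). Its 3 arrays were the closest together of the 7 member probes measured on every array. Probe 7641 read -0.0036, 0.03 and -0.43, a mean of -0.14 ± 0.26 that did not pass (adjusted p = 0.383). In that fit 23.5% of 14122 probes passed toward liver. Probe 3829 was above probe 7641 by 3.31, 3.40 and 3.73 on the 3 arrays. Averaged over both probes, Thrsp stood at 1.60 ± 0.16, a 3.04-fold higher level in liver (limma adjusted p = 8.22e-05), which neither probe shows by itself.

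Probes of one gene rarely lay so far apart. Among 2236 genes with 2 or more probes measured on all arrays, the highest and lowest probe means differed by a median of 0.33, and 12 genes (0.537%) had a gap as wide as that of Thrsp or wider. Elovl3, an elongase of saturated and monounsaturated fatty acids and a relative of Elovl2, was among them. Its probe 5090 read 3.85, 3.48 and 3.49 and its probe 13737 read 0.17, 0.17 and -0.10. Where the highest probe of a gene averaged 3 or more, a level chosen after the values were seen, the lowest probe lay within 0.5 of 0 in 14 of 41 genes. The files do not give the part of the transcript that each probe covers, and no probe's intensity was used here.

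**Figure D2:**
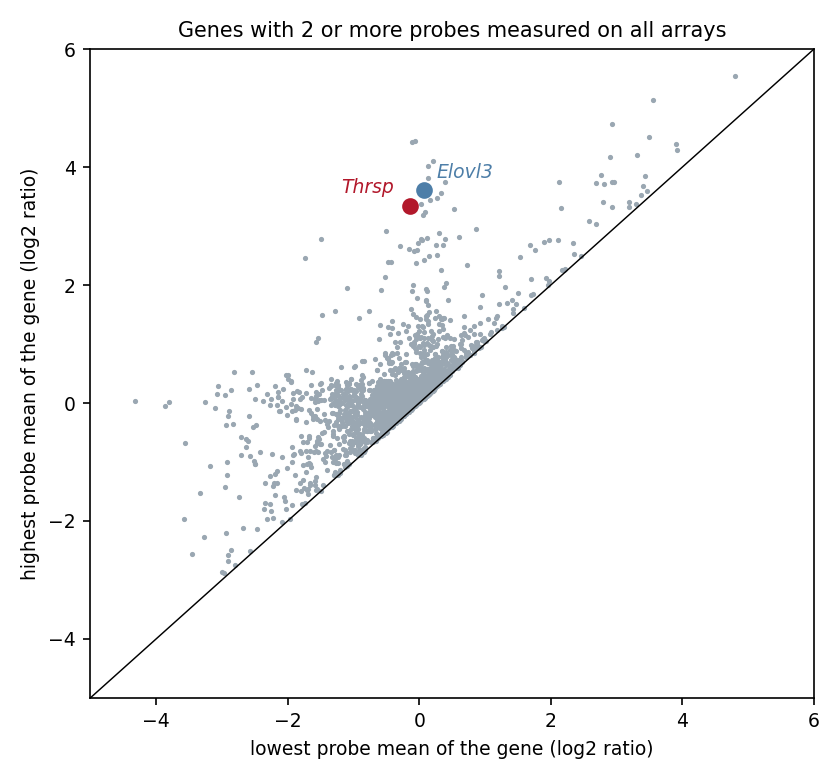
Lowest (horizontal axis) against highest (vertical axis) probe mean, as log2 ratios, of the 2236 genes with 2 or more probes measured on all arrays, with the line of equality. Thrsp (red) and Elovl3 (blue) lie above 3 on the vertical axis and near 0 on the horizontal axis, in a column of genes with 1 probe near 0.

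The order of the ratios, Elovl2, Sc5d, Fads1, Sqle, Thrsp and Acly, was partly resolved by the arrays. Elovl2 was above Sc5d by 0.69, 0.39 and 1.28 on the 3 arrays. Sc5d and Fads1 overlapped, and their difference changed sign between arrays, at -0.03, 0.10 and 0.06. Fads1 was above Sqle by 0.48, 0.55 and 0.29, although the lowest Fads1 value of 2.56 and the highest Sqle value of 2.53 nearly met. Sqle was above the Thrsp average by 0.79, 0.80 and 0.84. Thrsp was above Acly by 0.60, 0.33 and 0.36, with 1.43 as its lowest value and 1.40 as the highest of Acly. With 3 arrays an exact sign test of any such pair cannot go below p = 0.25. The place of Thrsp depends on its probes, since probe 3829 alone would stand between Elovl2 and Sc5d. Sc5d, Fads1, Sqle and Acly have 1 probe each, so how far their places depend on the probe could not be seen. In genes with 2 or more probes measured on all arrays, the probe means differed by a median of 0.33. The order compares ratios and says nothing about which transcript was more abundant in either tissue.

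**Figure D3:**
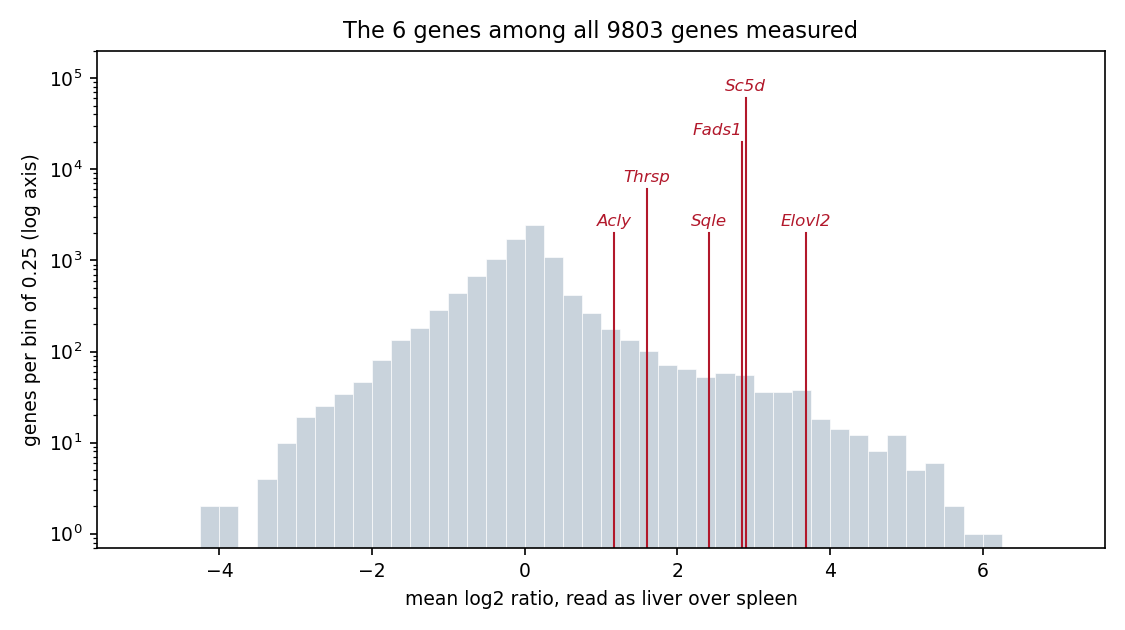
Number of genes (vertical, log axis) by mean log2 ratio (horizontal axis, read as liver over spleen) for all 9803 genes, with the 6 genes marked in red. They lie between 1.17 and 3.68, in the right-hand tail of a distribution with a median of 0.02.

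Among all 9803 genes ranked by their mean ratio toward liver, Elovl2 was number 88, Sc5d 210, Fads1 222, Sqle 319, Thrsp 544 and Acly 772. The place of Thrsp is that of its average over both probes. In place of that average, probe 3829 would be number 135 and probe 7641 number 6136. Elovl2 lay in the top 0.898% and Acly in the top 7.88% of the genes ranked. Genes without a value on every array have no rank, among them the liver markers Alb, Serpina1b, Ttr and Apoa1. The genes whose 3 ratios came nearest, measured by the root mean square difference over the arrays, were haptoglobin (Hp) for Elovl2 at 0.10, Slc19a2 for Sc5d at 0.05, Gsta1 for Fads1 at 0.06, Sqor for Sqle at 0.02, Tgoln1 for Thrsp at 0.03 and Dnajc19 for Acly at 0.07. Next nearest were Selenbp2, Nr1h4, Ttc23, Stard10, Cyp4f13 and As3mt, in the same order of the 6 genes. With 3 arrays of 1 RNA pair, this likeness is little more than a similar mean.

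The 6 genes lay on the same side of the comparison, and their upstream stretches were looked up in RefSeq (build GRCm38.p6). Of the 6, 4 were matched in the table used, and the stretches of Sqle and Fads1 were not analysed here. Each stretch is the 250 bases before the annotated start, 5′ to 3′ on the gene's strand, which is the minus strand for all 4. Capitals mark matches on either strand to CCAAT (or ATTGG), the NF-Y site, to GGGCGG (or CCGCCC), the Sp1 site, and to CACGTG, the E-box. For Elovl2, which has 2 starts in the table, the outermost start was used. The stretches are Sc5d at chr9:42264301-42264550, Acly at chr11:100528001-100528250, Elovl2 at chr13:41220404-41220653 and Thrsp at chr7:97417551-97417800.
Sc5d: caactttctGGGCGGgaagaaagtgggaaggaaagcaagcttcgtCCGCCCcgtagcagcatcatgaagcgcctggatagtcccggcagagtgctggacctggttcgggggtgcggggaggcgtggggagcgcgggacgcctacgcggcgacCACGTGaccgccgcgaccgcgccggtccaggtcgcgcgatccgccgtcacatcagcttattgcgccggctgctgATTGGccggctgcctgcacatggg
Acly: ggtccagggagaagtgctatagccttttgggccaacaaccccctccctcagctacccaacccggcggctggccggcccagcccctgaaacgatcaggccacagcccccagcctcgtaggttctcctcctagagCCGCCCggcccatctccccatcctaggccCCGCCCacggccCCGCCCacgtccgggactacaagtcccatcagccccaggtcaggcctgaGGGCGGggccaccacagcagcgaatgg
Elovl2: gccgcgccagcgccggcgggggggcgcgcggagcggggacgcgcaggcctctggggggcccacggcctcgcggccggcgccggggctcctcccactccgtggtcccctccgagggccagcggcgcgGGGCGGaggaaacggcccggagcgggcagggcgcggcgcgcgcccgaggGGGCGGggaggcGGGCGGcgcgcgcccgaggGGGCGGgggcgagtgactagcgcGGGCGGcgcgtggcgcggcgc
Thrsp: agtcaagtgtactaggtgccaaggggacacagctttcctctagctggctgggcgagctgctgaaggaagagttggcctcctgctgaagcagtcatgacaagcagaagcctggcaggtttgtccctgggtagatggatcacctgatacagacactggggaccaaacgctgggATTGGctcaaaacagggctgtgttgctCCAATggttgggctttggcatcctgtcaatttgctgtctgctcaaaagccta

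The 4 stretches differed in composition and in the sites they held. Elovl2 was 87.2% G and C and held 5 GC boxes, Acly was 68.8% G and C and held 4. Sc5d, at 67.6% G and C, held 2 GC boxes, 1 E-box starting 98 bases before the start and 1 inverted CCAAT box 24 bases before it. Thrsp was lowest at 53.6% G and C and held no GC box but 2 CCAAT boxes, beginning 79 and 52 bases before the start, the more distant one inverted. Of 32851 such stretches in the RefSeq table, 33.8% held a CCAAT box, 32.7% a GC box and 6.02% an E-box, each counted as at least 1 match. A core of the sterol regulatory element, TCACNCCAC, was found in 1.05% of all stretches and the TATA box TATAAA in 12.4%, and neither had a match in these 4. A match or its lack here describes letters in a window and not binding.

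The other enzymes of cholesterol synthesis lay mostly on the liver side as well. Of 20 enzymes from acetyl-CoA to cholesterol, 13 were measured on all arrays, Sqle and Sc5d among them. Of these, 11 passed toward liver, 8 of them at 2-fold or more, and 0 passed toward spleen, with a median of 1.85. Both the 11 and the 8 include Sqle and Sc5d. Over all genes 25.3% passed toward liver, 9.21% did so at 2-fold or more, and 27.4% passed toward spleen. Msmo1, the sterol methyl oxidase that acts before Sc5d, read 3.62, 3.76 and 3.46, a mean of 3.61 ± 0.15 and the highest of the list. The isomerase Ebp averaged 2.60 ± 0.05 and the lanosterol demethylase Cyp51 2.51 ± 0.05, so that Sqle, Cyp51, Ebp and Sc5d lay within 0.48 of each other. The isomerase of the isoprenoid units, Idi1, averaged 2.04 ± 0.12. Phosphomevalonate kinase (Pmvk) averaged 1.85 ± 0.27, squalene synthase (Fdft1) 1.44 ± 0.34 and mevalonate decarboxylase (Mvd) 0.99 ± 0.14.

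A few steps stood apart from that run. Mevalonate kinase (Mvk) averaged 0.22 ± 0.08 (limma adjusted p = 0.0666) and the sterol reductase Tm7sf2 averaged -0.15 ± 0.10 (adjusted p = 0.172), and neither passed. The value of Mvk is the mean of probes at 0.03 and 0.40. With the probe of largest absolute mean standing for each gene, 12 of the 13 measured enzymes passed toward liver. Hsd17b7 averaged 0.70 ± 0.25 and Dhcr7, the reductase that finishes the molecule, 0.32 ± 0.09. Dhcr7 passed with all arrays (adjusted p = 0.0198) but not without array 1, where it averaged 0.29 (adjusted p = 0.0973), nor without array 2, where it averaged 0.30 (adjusted p = 0.0944). The other enzymes of the list were not analysed here.

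**Figure D4:**
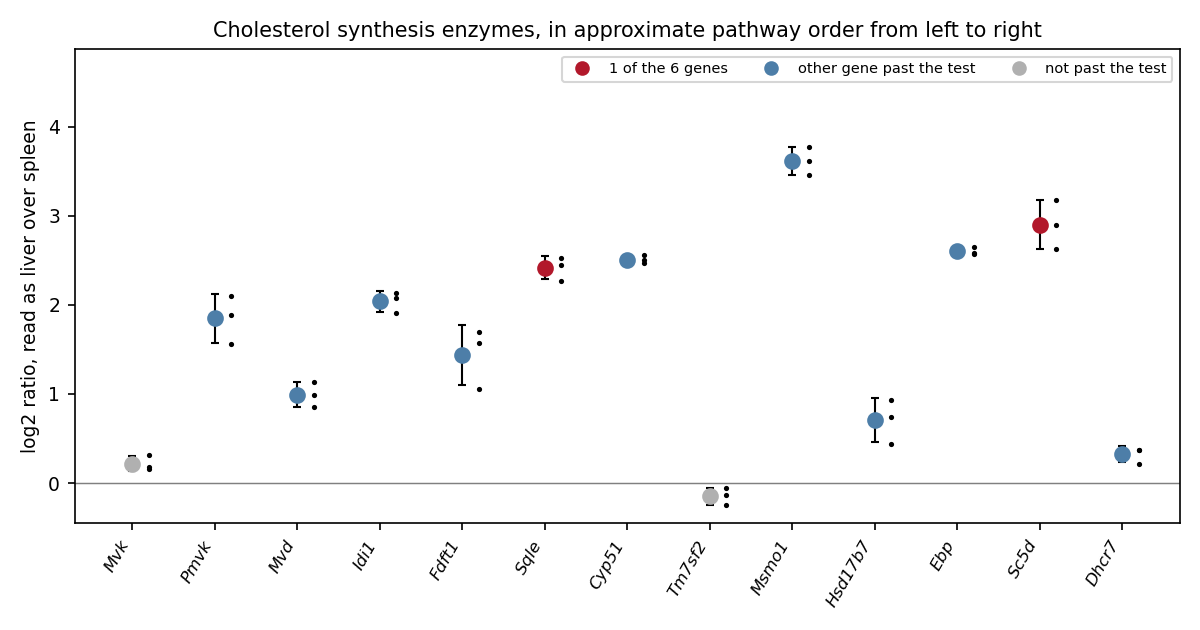
Mean log2 ratio (vertical axis, read as liver over spleen) of the 13 measured cholesterol synthesis enzymes in approximate pathway order, with error bars of 1 SD over 3 arrays and the arrays as small dots. Sqle and Sc5d (red) lie among Cyp51, Msmo1 and Ebp between 2.41 and 3.61, while Mvk, Tm7sf2 and Dhcr7 lie within 0.5 of 0.

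Of 7 genes that supply acetyl-CoA and assemble palmitate, 4 were measured on all arrays, Acly among them. All 4 passed toward liver, with a median of 1.67. Over all genes 25.3% passed toward liver, and 4 genes are too few to set against that share. Fatty acid synthase (Fasn) averaged 1.85 ± 0.16, the acetyl-CoA synthetase Acss2 1.70 ± 0.27 and the mitochondrial citrate carrier Slc25a1, which exports the substrate of Acly, 1.64 ± 0.33. Acly was the lowest of the 4. The malic enzyme Me1 was listed at 0 on array 2 and read 1.10 and 0.69 on arrays 1 and 3.

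The list of elongation and desaturation that holds Elovl2 and Fads1 had members on both sides. Of 21 genes, 12 had a value on all arrays, 9 passed toward liver and 2 toward spleen, with a median of 1.43. Over all genes 25.3% passed toward liver and 27.4% toward spleen, so the spleen-side count of 2 among 12 is near the background. Fads2, the desaturase that acts ahead of Fads1 on the same fatty acids, read 1.90, 2.31 and 1.08. Its mean of 1.76 ± 0.63 was below that of Fads1 and its arrays were further apart. The dehydratases Hacd2 and Hacd3 averaged 1.92 ± 0.03 and 1.26 ± 0.14, and the ketoacyl reductase Hsd17b12 1.60 ± 0.06, all enzymes of the elongation cycle that Elovl2 opens. Elovl3 averaged 1.84 ± 0.16 over the 2 probes described above, and Elovl1 averaged 0.36 ± 0.11 over 3 probes.

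The members on the spleen side were a stearoyl-CoA desaturase, Scd2, and a further dehydratase, Hacd4. Scd2 read -1.67, -1.88 and -1.53, a mean of -1.69 ± 0.17 (limma adjusted p = 7.88e-05), and Hacd4 averaged -0.81 ± 0.10. The probe of Scd1, the form of that desaturase known from liver and fat, was listed at 0 on array 2. It read -2.39 and -1.23 on arrays 1 and 3, also on the spleen side, and has no test in the main fit. Scd1 entered where probes on at least 2 arrays were used, and there 3 of 14 genes of the list passed toward spleen. It also entered without array 2, where 3 of 13 did. Scd1 and Scd2 have closely similar sequences, and whether their probes share signal was not resolved here. The only measured gene of the list that did not pass was Hacd1 at 0.37 ± 0.30, and Elovl4 read 0.19 and -0.21 on arrays 2 and 3 and 0 on array 1. Elovl1 lost its call when array 1 was left out, at a mean of 0.34 (adjusted p = 0.0735), and when array 2 was, at 0.32 (adjusted p = 0.0801). The enoyl reductase Tecr, at 0.64 ± 0.37, did so as well, at 0.64 (adjusted p = 0.0545) and 0.46 (adjusted p = 0.056).

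**Figure D5:**
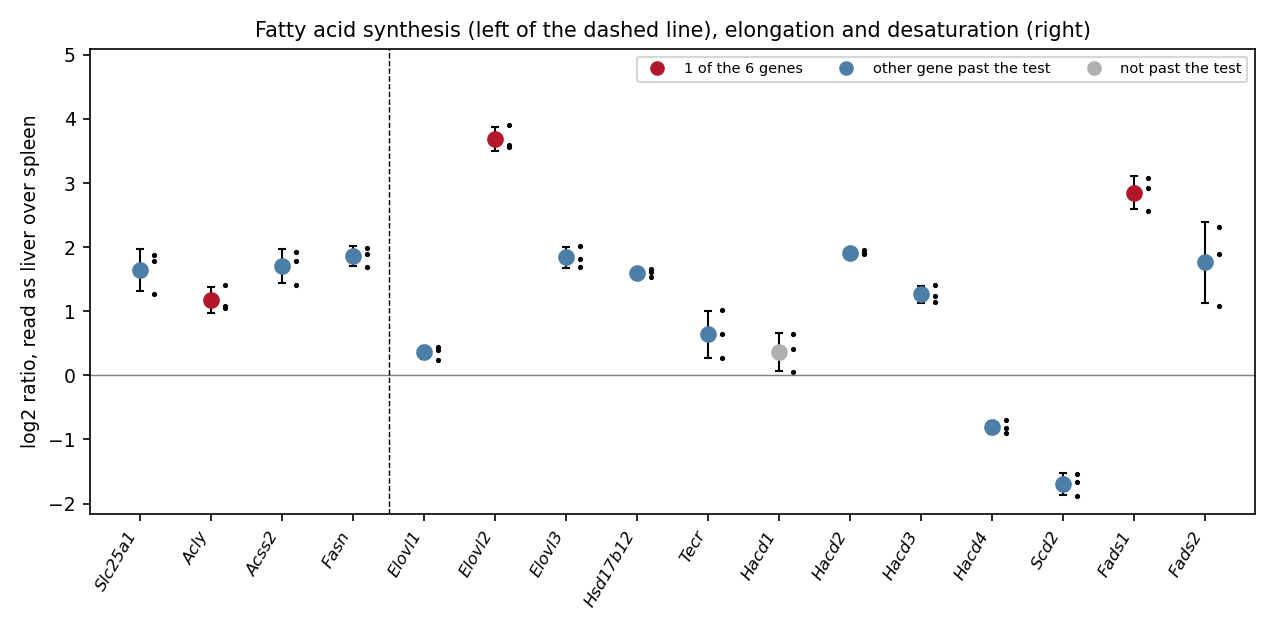
Mean log2 ratio (vertical axis, read as liver over spleen) of the measured genes of fatty acid synthesis, elongation and desaturation, with error bars of 1 SD over 3 arrays and the arrays as small dots. Elovl2 at 3.68 and Fads1 at 2.85 (red) are the highest, Acly (red) is at 1.17, and Scd2 at -1.69 and Hacd4 at -0.81 lie below 0.

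Apart from the 6 genes, these 3 lists held 24 further measured genes. Of these, 19 passed toward liver, 14 of them at 2-fold or more, 2 passed toward spleen and 3 did not pass, with a median of 1.52. Over all genes the share past the test toward liver was 25.3%, and at 2-fold or more 9.21%.

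Regulators of these routes were mixed. Of 18 genes, 11 were measured on all arrays, 6 passed toward liver, Thrsp among them, and 0 toward spleen, with a median of 0.24. Over all genes 25.3% passed toward liver and 27.4% toward spleen. The carbohydrate response factor Mlxipl averaged 2.66 ± 0.38, Srebf1, which encodes a sterol regulatory element binding protein, 1.52 ± 0.17, and the oxysterol receptor Nr1h3 1.27 ± 0.13. The thyroid hormone receptor Thrb averaged 0.46 ± 0.07. Usf2 at 0.24 ± 0.08 passed with all arrays (limma adjusted p = 0.0474) but lost its call when any 1 array was left out (adjusted p from 0.0937 to 0.172). It also lost it with arrays centred, centred and scaled, and with probes on at least 2 arrays (adjusted p from 0.0515 to 0.0738). Mid1ip1, the closest relative of Thrsp, read 0.03, 0.37 and -0.21, a mean of 0.06 ± 0.29 that did not pass (adjusted p = 0.692). The others that did not pass were Mbtps1 at -0.12 ± 0.10, the Mlxipl partner Mlx at -0.07 ± 0.18, Rxra at -0.28 ± 0.21 and Usf1 at 0.06 ± 0.27.

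Neighbouring routes were counted in the same way, beside 25.3% of all genes past the test toward liver and 27.4% toward spleen. NADPH supply and sterol uptake had 3 measured genes each, too few to set against these shares. Of 7 measured genes of triglyceride assembly out of 13, 5 passed toward liver and 0 toward spleen, with a median of 1.32. The phosphatidate phosphatases Lpin1, Lpin2 and Lpin3 averaged 1.83 ± 0.24, 1.68 ± 0.10 and 1.32 ± 0.42, and the acyltransferase Gpat4 1.54 ± 0.03. Agpat1 at 0.04 ± 0.07 and Mogat1 at 0.01 ± 0.23 did not pass, and Dgat2 was listed at 0 on every array. Among 3 measured genes of cytosolic NADPH supply, the isocitrate dehydrogenase Idh1 at 2.05 ± 0.91 and Pgls at 0.53 ± 0.08 passed toward liver, and Pgd at -0.14 ± 0.19 did not pass. Of 3 measured genes of sterol uptake and turnover, Npc1 averaged 0.92 ± 0.21, with probes at 1.73 and 0.11, the lipase Lipa 0.30 ± 0.02 and Npc2 -0.37 ± 0.09. Lipa did not pass without array 1 or array 2 (adjusted p = 0.0891 and 0.0819), and Npc2 did not pass without array 2 (adjusted p = 0.052).

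Fat cells also make fatty acids, and fat can remain attached to either organ, so markers of fat cells are given beside these genes. Of 10 markers, 7 were measured on all arrays, 3 passed toward liver and 2 toward spleen, all under 2-fold, with means from -0.83 to 0.56 and list medians of 0.40, -0.08 and 0.12 on the 3 arrays. Over all genes 25.3% passed toward liver and 27.4% toward spleen, so these counts are near the background. On the spleen side, adiponectin (Adipoq) averaged -0.83 ± 0.16 and Fabp4 -0.46 ± 0.17, with Fabp4 probes at -0.79, -0.55 and -0.04. On the liver side, Retn averaged 0.56 ± 0.04, Cidec 0.50 ± 0.14 and Ucp1 0.29 ± 0.15. Fabp4 did not pass without array 2 (adjusted p = 0.0576), and Ucp1 did not pass without array 1 or array 2 (adjusted p = 0.179 and 0.164). Ucp1 also lost its call with exact 0 kept, with arrays centred, centred and scaled, and with its larger probe alone (adjusted p from 0.0507 to 0.0594). Lipe at 0.19 ± 0.32 and Pparg at -0.05 ± 0.06 did not pass, and 1 probe of leptin (Lep) was listed at 0 on every array. Of 7 measured pancreatic markers, 4 passed toward spleen and 0 toward liver, with means from -0.59 to 0.04. The part of fat or pancreas in the ratios of the 6 genes was not tested.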

How the data were processed

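Per the labels, every array carried spleen RNA in Cyanine-3 and liver RNA in Cyanine-5. The deposited table gives 1 log2 ratio per probe and array. Its log base was taken from the values, since the highest on each array is the log2 of 100. The sources used here state neither its background correction and dye normalization nor its direction. No intensities were used, and the number of arrays limits the precision. Exact 0 was taken as no measurement, which left 14122 of 16281 probes with a value on all 3 arrays. Probes were named from the platform annotation, where 13738 had 1 symbol, 52 several and 2491 none, and all 8 member probes matched RefSeq by Entrez number. Probes with 1 symbol were averaged per gene and array, leaving 9803 genes. Each gene was tested against a ratio of 0 with limma 3.58.1 in R 4.3.3 (intercept-only fit, moderated variances with 3.38 prior degrees of freedom, two-sided, Benjamini-Hochberg adjusted over all genes, threshold 0.05), and probes likewise in a fit of their own. In 5 simulated runs with few changed genes and independent errors, the fit called 24% of log2 changes of 0.5 and 68.8% of changes of 1. It called 0.0646% of unchanged genes. The runs took SDs estimated from 3 arrays as the true ones, and a much larger share of genes passed in the real data. These rates may therefore not carry over. Lists cover cholesterol synthesis, fatty acid synthesis, elongation and desaturation, lipogenic control, sterol uptake, triglyceride synthesis, NADPH supply and markers of liver, spleen, fat and pancreas. The 6 genes and these lists were chosen with earlier results of these data known. Named are the 6 genes, the relatives Mid1ip1, Elovl and Fads, and from each list the 4 measured genes with the largest ratios past the test in each direction, those that did not pass and those with a probe but no value on all arrays, with the 2 genes nearest each member. Idi1, Pmvk, Fdft1, Mvd, Hsd17b7, Dhcr7, Hsd17b12, Hacd3, Tecr, Thrb and Usf2 were added after their values were seen, and not every gene the rule took is named. Alternatives were exact 0 kept as a value, arrays centred, centred and scaled or quantile normalized, probes on at least 2 arrays, the probe with the largest absolute mean, probes with several symbols, a robust prior, limma's treat at 2-fold, and each array left out.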

Additional observations from a re-analysis of the deposited data

How the results depend on the processing

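All 6 genes kept their direction under the 12 alternatives run for each, and all but Acly kept their side of the threshold under each of them. For Thrsp, every alternative used the average of its 2 probes or probe 3829. None used probe 7641 alone, which averaged -0.14 and did not pass, so the alternatives do not cover the disagreement of its probes. Against a 2-fold limit by limma's treat test, Acly at 1.17 did not pass (adjusted p = 0.509, against a range from 0.000168 to 0.00318 over its other alternatives). With each array left out in turn, Elovl2 ranged from 3.58 to 5.19 (the latter a lower bound, since probe 4825 at the table's limit enters without array 1), Sc5d from 2.76 to 3.04, Fads1 from 2.74 to 3.00, Sqle from 2.36 to 2.48, Thrsp from 1.54 to 1.69 and Acly from 1.06 to 1.24. Elovl2 averaged 4.06 with exact 0 kept as a value (adjusted p = 0.0285), since its probe 4825 then enters, and Thrsp averaged 3.34 where its larger probe stood for the gene.

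The treat test at 2-fold lowered the counts most. It called 623 genes toward liver and 400 toward spleen, against 2484 and 2690 for the test against 0. Toward liver it called 7 genes of cholesterol synthesis, 5 of elongation and desaturation, 3 of lipogenic control, 3 of triglyceride synthesis and 0 each of sterol uptake, NADPH supply and fat cell markers. Toward spleen it called 1 gene of elongation and desaturation and 0 each of sterol uptake, fat cell markers and pancreatic markers. With the probe of largest absolute mean standing for each gene, 1 gene of lipogenic control passed toward spleen. Leaving out arrays gave between 1 and 2 sterol uptake genes toward liver and between 0 and 1 toward spleen, between 1 and 2 fat cell markers toward spleen, and between 2 and 4 pancreatic markers toward spleen. The counts of the other lists stayed within 1.5 times those given.

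Each ratio already pairs liver with spleen on its array, and with 1 group of arrays there was no further block to fit. With 3 arrays of 1 pair of RNAs, no value here describes the spread between animals.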
